A study of Triticum turgidum subsp. durum with 20 samples.

Results

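The gene models described here are the low-confidence (LC) models of the wheat annotation that drew reads in developing apices of durum wheat. They are the models whose identifier ends in LC, on A or B chromosomes or on unanchored scaffolds (Un), with at least 200 counts summed over all 20 libraries. The rule took 9206 of 116701 LC models (7.89%), which is 4.84% of the 190381 models of all kinds on these sequences. At the same cut there were 36279 models without the LC ending, of 73680 such models (49.2%). Of the other LC models, 88142 had no count in any library and 19353 had at least 1 count but stayed under the cut.

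The annotators of the wheat genome sort predicted genes by the evidence for a complete protein. High-confidence models have a predicted protein that matches known plant proteins over most of its length, whereas LC models are truncated, lack such a match, or resemble transposable elements. The LC class is therefore known to mix gene fragments, pseudogenes, lineage-specific genes, non-coding transcripts and pieces of neighbouring genes that were annotated apart. In the apex, the vegetative meristem makes leaves, then forms double ridges, and then lays down glume, lemma and finally terminal spikelet primordia.

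RNA was sequenced from apices of the tetraploid variety Kronos at 5 stages of the Waddington scale, with 4 biological replicates at each: W1, W2 and, within W3, the steps W3.0, W3.25, W3.5. Apices of W3.5 were at terminal spikelet, W3.25 apices at lemma primordium and W1 apices were vegetative. The W2 and W3.0 stages carry different names in the study's text and its deposited description, so stages are given by number. Every plant carried the same genotype, with a spring VRN-A1 allele that has an intron deletion and the less photoperiod-sensitive Ppd-A1a allele, and grew in long days of 16 h light. About 20 apices were pooled for each W1 and W2 replicate and about 12 for each later one, so pool size and stage cannot be told apart between W3.0 and W2 or between W3.5 and W1.

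Library totals ran from 22229388 to 29655553 counts, with a median of 25121584. Known stage genes were checked against the labels. The floral organ gene TraesCS1A02G264300, a PISTILLATA-like MADS-box gene, had 33.2 ± 4.34 TPM at W3.5, against 4.94 ± 0.574 TPM at W1 (SD, n = 4 each). The vegetative-phase gene SVP-B2 (TraesCS7B02G080300) had 8.31 ± 0.916 TPM at W3.5, against 39.4 ± 1.16 TPM at W1. Of the libraries, W1 replicate 1 stood apart from its stage over the members, with a score of -62.7 on the first principal component, where the other W1 libraries lay between -46.3 and -45.7. The comparisons of the members with W1 are therefore also given without it, over the members, classes and pairs as set by all 20 libraries.

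All 9206 members passed the low-count filter and were tested, as were 36278 of the 36279 other models at the cut. A count was present in every library for 9096 members (98.8%), and 6948 members (75.5%) had at least 10 counts in every library, against 31956 (88.1%) of the other models. A model near the cut reaches 200 counts more readily when 1 stage is high, so members with few counts can include models that entered through a single stage. The cut is a point on a continuum. TraesCS2A02G162600LC and TraesCS2B02G176000LC, with 200 counts each, lay just inside it, and TraesCS1A02G080300LC and TraesCS1A02G338600LC, with 1 count fewer, just outside. Their fitted log2 differences, W3.5 over W1, were -2.89 and 1.93 inside the cut and 0.24 and -2.41 outside it.

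Members were shorter and less abundant than the other models. The median span, introns included, was 1559.5 bp in members and 3669 bp in the other models, and 22.9% of members spanned at most 600 bp, against 2.23% of the other models. The shortest member spanned 87 bp and the longest 182573 bp. Median counts over the 20 libraries were 1059.5 in members and 4861 in the other models. Per base of span, introns included, the gap was narrower, and a gap per base of transcript was not computed. TPM (transcript abundance per unit length, scaled to 1 total in every library), computed with the span as length and averaged over the libraries, had a median of 4.19 in members and 6.24 in the other models. At least 100 TPM on average was reached by 109 members and 1211 other models. Counts were concentrated in few members: the 10 with the most held 7.14% of all member counts, the top 100 held 26.1% and the top 610, those with at least 10000 counts, held 51.8%.

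The share of reads that fell on members was larger at later stages. At W1 the members took 5.67%, 5.75%, 5.73% and 5.84% of a library's counts (mean 5.75% ± 0.068, SD, n = 4). The W2 mean was 6.17% ± 0.079 and the W3.0 mean 6.47% ± 0.107. Little was added after that, with 6.49% ± 0.167 in W3.25 and 6.55% ± 0.097 in W3.5. The W2 libraries, between 6.07% and 6.24%, all lay above the W1 libraries, and the W3.0 libraries, between 6.32% and 6.58%, all lay above the W2 libraries. The 3 W3 stages overlapped. The share was 0.424 percentage points larger in W2 than in W1 and 0.301 points larger in W3.0 than in W2, each more than the SD within a stage. From end to end it was 0.8004 points larger in W3.5 than in W1, a relative difference of 13.9%. Without W1 replicate 1 the differences from W1 were 0.399 and 0.775 points. No test was run on these sums. In pooled apices, more cells that express a model and more RNA of it per cell cannot be told apart.

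**Figure D1:**
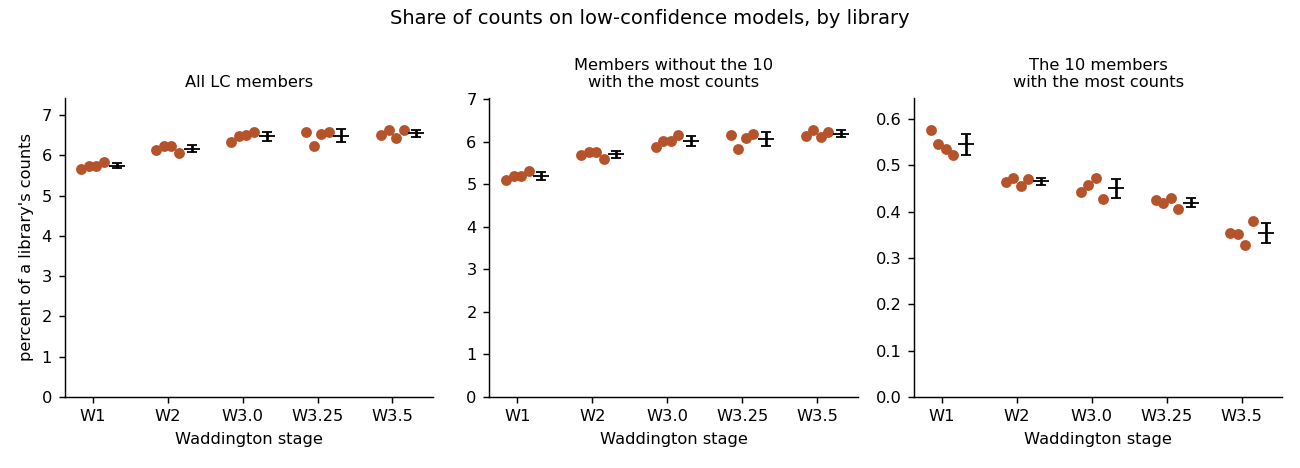
Share of each library's counts (y axis, percent) on all 9206 LC members, on the members without the 10 most abundant, and on those 10, by Waddington stage (x axis). Points are libraries and bars are the mean and SD of 4. The share of all members goes up between W1 and W3.0 and levels off near 6.5%, whereas the mean of the 10 most abundant members is lower at each later stage, with 0.354% at W3.5 and 0.546% at W1.

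The most abundant members ran against this direction. The 10 members with the most counts took 0.354% ± 0.0210 of counts at W3.5, against 0.546% ± 0.0232 at W1, and the libraries did not overlap. Without these 10, the members' share was 6.19% ± 0.082 at W3.5, against 5.20% ± 0.090 at W1, a relative difference of 19.1%. Members with 200 to under 500 counts took a share 30.3% larger in W3.5 than in W1, members with 500 to under 2000 counts 34.8% larger and members with 2000 to under 10000 counts 32.1% larger, each without overlap of libraries. The share on members with at least 10000 counts was 3.20% ± 0.059 at W3.5 and 3.22% ± 0.038 at W1, and these libraries overlapped. Other models with 200 to under 500 counts differed in the opposite direction, with 0.220% ± 0.0033 at W3.5 and 0.309% ± 0.011 at W1. Those with 500 to under 2000 counts took 1.70% and 1.76%, with overlapping libraries. Other models with 2000 to under 10000 counts had the members' direction, with 14.4% at W3.5 and 13.5% at W1. Those with at least 10000 counts took 76.9% at W3.5 and 78.4% at W1, and in both these classes the libraries did not overlap. LC models under the cut, with 10 to under 200 counts, took 0.117% ± 0.0029 at W3.5 and 0.0918% ± 0.0045 at W1, also without overlap. Without W1 replicate 1, the differences of members, of LC models under the cut and of other models under 500 counts kept their direction. The 10 most abundant members then averaged 0.535% at W1 and the members without them 5.24%. The relative differences of the 3 lower classes of members were 27.3%, 32.4% and 29.95%. The members on A chromosomes and on B chromosomes each took a larger share at W3.5 than at W1, by 12.3% on A and 16.1% on B, while the 144 members on scaffolds took 0.141% ± 0.010 at W3.5 and 0.146% ± 0.015 at W1, with overlapping libraries. The excess was 12.5% on A and 15.1% on B without W1 replicate 1. As a share of TPM, which weights short models more, members made up 11.8% ± 0.15 at W3.5 and 10.6% ± 0.19 at W1, or 10.7% without that W1 library.

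A smaller share of members than of other models was called, and most called members were higher at the later stage. A model was called where edgeR's quasi-likelihood test and DESeq2 agreed in direction and each reached an adjusted p (Benjamini-Hochberg) of 0.01 or less, over 48336 tested models. Between W2 and W1, 1070 members (11.6%) were called, 747 higher and 323 lower in W2, so 8.11% of members were higher and 3.51% lower. Of all tested models 8.3% were called higher and 14.6% lower. Among the other models at the cut, 3220 (8.88%) were higher and 6357 (17.5%) lower. The median log2 fold change, W2 over W1, was 0.15 over members, -0.03 over the other models and 0.00 over all tested models. Without W1 replicate 1, 861 members were called and 69.0% of them were higher, close to the 69.8% over all libraries. A fit on the 8 libraries of W1 and W2 alone called 654 members. The difference in direction between members and other models was not tested as such.

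Between W3.0 and W2 the members again leaned to the later stage, with 964 called (10.5%), 584 higher and 380 lower in W3.0. That is 6.34% of members higher and 4.13% lower, beside 7.64% higher and 11.6% lower over all tested models. The other models had 3028 higher (8.35%) and 4875 lower (13.4%). Median log2 fold changes were 0.09 over members and -0.01 over the other models. Among members past a 2-fold change the 2 directions were near each other, with 198 higher and 206 lower, beside 1210 higher and 2713 lower over all tested models.

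The later transitions moved few members. Between W3.25 and W3.0, 32 members were called, 19 higher (0.206%) and 13 lower (0.141%), beside 0.474% and 0.348% of all tested models. This count fell to 12 without W3.0 replicate 3, to 19 without W3.0 replicate 4, and to 16, 19 and 17 without W3.25 replicates 2, 3 and 4. Between W3.5 and W3.25, 25 members were called, 10 higher (0.109%) and 15 lower (0.163%), beside 0.288% and 0.414% of all tested models. Leaving out W3.5 replicate 2 or 3 gave 8 and 7, and leaving out W3.25 replicate 1, 2, 3 or 4 gave 11, 15, 15 and 15. Without W3.5 replicate 1 the count was 14. Without W1 replicate 1, a library of neither stage, it was 42. Each such refit redid the filter, the normalization, the estimate of spread and the p adjustment.

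Over the whole course, 3413 members (37.1%) were called between W3.5 and W1, 2574 higher and 839 lower in W3.5. Hence 28.0% of members were higher and 9.11% lower, beside 22.3% and 26.9% of all tested models and 21.7% and 31.3% of the other models at the cut. The later stage was the higher one for 75.4% of called members and 40.9% of called other models. Over all members, called or not, the median log2 fold change was 0.30 and 71.6% were above 0, while the other models had a median of -0.04 and 46.8% above 0. Fold changes and calls are relative to the library factors of the fit, whereas shares of reads are relative to library totals. At least a 2-fold change was reached by 740 members that were higher and 348 that were lower, beside 3342 higher and 4854 lower over all tested models. Of the 3413 called members, 3122 had no overlap between the 4 W3.5 and the 4 W1 libraries, and of the 23775 models called over all tested models, 22259 had none. Without W1 replicate 1, 2902 members were called, 74.1% of them higher.

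**Figure D2:**
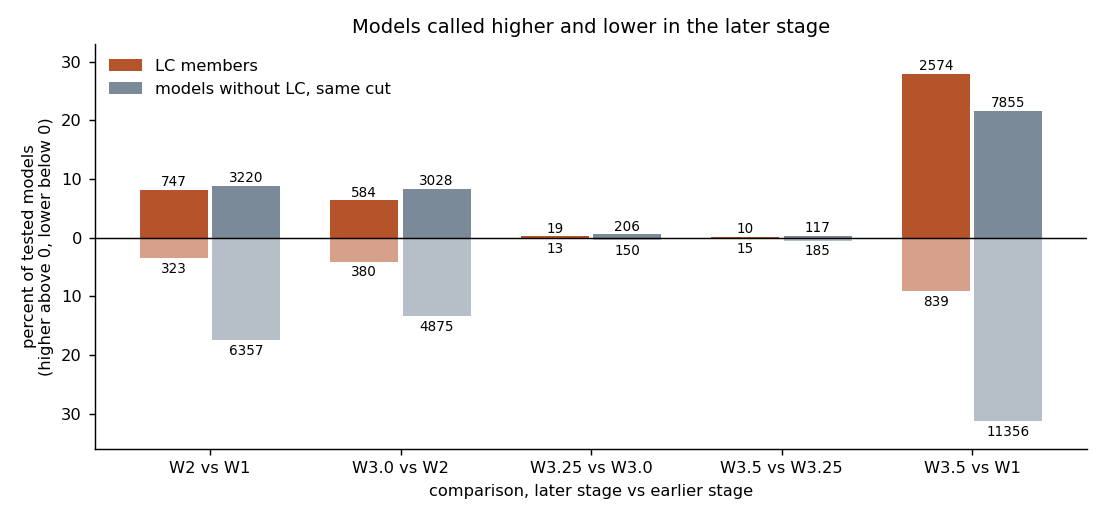
Percent of tested models called higher (above 0) and lower (below 0) in the later stage of each comparison (x axis), for LC members and for models without LC at the same cut. Numbers are counts of models. Members called higher outnumber those called lower in W2 against W1 (747 and 323), W3.0 against W2 (584 and 380) and W3.5 against W1 (2574 and 839), whereas the other models show the reverse.

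Between W3.5 and W1, members were called less often than other models in the 2 lower classes of abundance, and their direction was the same in all 4 classes. In this comparison, 19.9% of members with 200 to under 500 counts were called, 31.6% of those with 500 to under 2000, 53.5% of those with 2000 to under 10000 and 72.5% of those with at least 10000. The other models had 47.0%, 46.3%, 50.1% and 62.7% in the same classes, so from 2000 counts upwards members were called more often here. In each of these 4 classes the called members were mostly higher at W3.5 (67.9%, 78.1%, 80.7% and 61.1%). The called other models were mostly lower (32.1%, 45.8%, 46.4% and 35.2% higher). Over all other models of a class, called or not, the median log2 fold change was -0.20, 0.04, -0.006 and -0.09. Over all members it was 0.31, 0.32, 0.28 and 0.14. These directions are relative to the library factors of the fit, and the medians of other models in the middle classes lay near 0. With W1 replicate 1 left out, 15.03%, 25.1%, 47.8% and 69.8% of members were called, against 43.1%, 42.2%, 46.02% and 61.5% of the other models, and the called members were higher in 61.8%, 75.7%, 80.7% and 62.9% of cases. In W2 against W1 members were called less often than the other models in the 3 lower classes. The called shares of members were 4.71%, 8.20%, 16.8% and 38.9%, against 23.4%, 21.4%, 23.1% and 34.7% of the other models. When W1 replicate 1 was left out, members had 2.95%, 5.62%, 14.4% and 36.6%, and the other models 19.3%, 18.4%, 20.5% and 35.5%. The called members with 200 to under 500 counts were then 37 higher and 37 lower in W2, against 65 higher and 53 lower over all libraries. An exception to the direction was W3.0 against W2, where 41.8% of the called members with 200 to under 500 counts were higher. Replicate spread was similar at equal abundance. The median coefficient of variation within a stage was 29.2% in members and 32.5% in other models with 200 to under 500 counts, and 6.09% in members and 5.50% in other models with at least 10000.

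**Figure D3:**
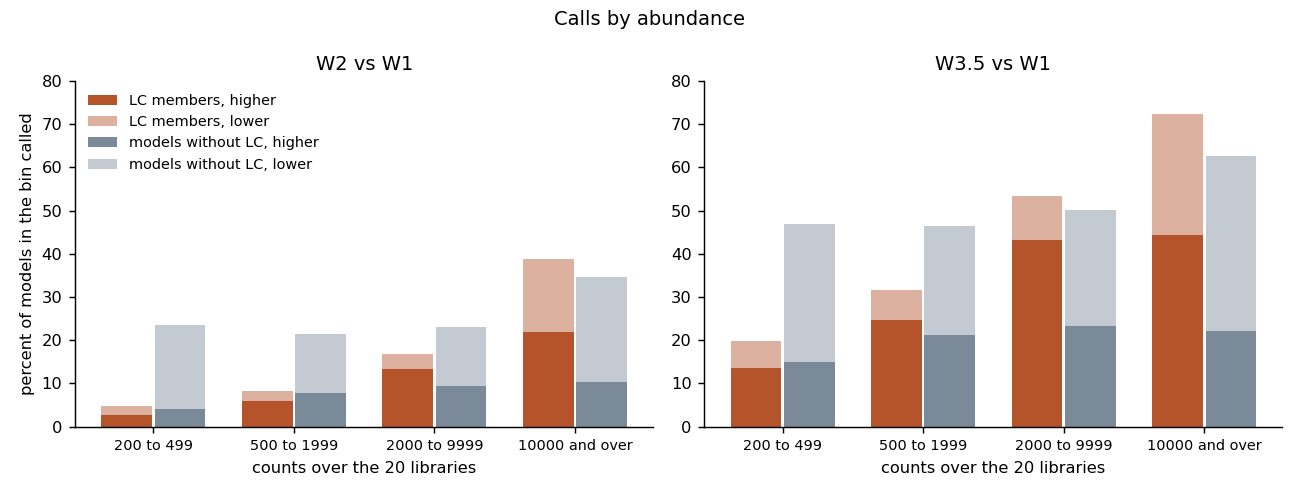
Percent of models called in W2 against W1 (left) and in W3.5 against W1 (right), by counts summed over the 20 libraries (x axis), for LC members and models without LC. Full colour is the part called higher and pale colour the part called lower at the later stage. In the lowest class 19.9% of members and 47.0% of other models were called between W3.5 and W1, in the highest 72.5% and 62.7%, and the full-coloured part is the larger one for members throughout the right panel.

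Direction varied with span length in the other models more than in members. Median log2 fold changes, W3.5 over W1, ran between 0.19 and 0.32 over 7 classes of span in members. In the other models they ran between -0.31 for spans up to 300 bp and 0.14 for spans above 10 kb. Leaving out W1 replicate 1, the medians ran between 0.19 and 0.29 in members and between -0.22 and 0.09 in the other models. Members spanning up to 300 bp were called higher and lower equally often, 37 each (29 higher and 26 lower without that library), and the share called higher was 82.4% among members longer than 5000 bp and up to 10000 bp.

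The time course of the members was mainly a contrast of W1 with the W3 stages. The edgeR quasi-likelihood F test over the 5 stages, at an adjusted p of at most 0.05, found a change in 4571 members (49.7%), beside 63.1% of all tested models and 67.2% of the other models at the cut. Without W1 replicate 1 it was 4453 members. Of the 4571 members, 3007 (65.8%) had their lowest mean at W1 and 1729 (37.8%) their highest at W3.5, while 873 (19.1%) had their highest at W1. Of the 24368 other models that changed, 8691 (35.7%) had their lowest mean at W1, 5139 (21.1%) their highest at W3.5 and 11869 (48.7%) their highest at W1. Mean levels went up at every step in 835 changed members (18.3%) and down at every step in 249 (5.45%), against 2474 (10.2%) and 3469 (14.2%) of the changed other models. Without W1 replicate 1, 62.0% of the changed members had their lowest mean at W1, 38.1% their highest at W3.5 and 18.01% their highest at W1, with 35.2%, 21.4% and 46.2% of the changed other models. On the first principal component of the members, which held 50.7% of the variance, the stage means were -50.2 ± 8.3, -18.8 ± 3.2, 20.1 ± 1.9, 23.4 ± 0.59 and 25.5 ± 1.7 in stage order. The corresponding component of the other models held 70.2%, and without W1 replicate 1 the shares were 48.7% and 68.3%. Green-tissue transcripts also differed between stages, in step with the first transition. The photosystem I genes TraesCS5B02G496000 and TraesCS5A02G482800 had 59.4 ± 4.76 and 53.6 ± 5.27 TPM at W2, against 23.7 ± 6.51 and 13.6 ± 3.13 TPM at W1, and the part of this difference in the members' counts was not tested.

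The direction was shared across the genome. Called members were higher at W3.5 in 75.6% of cases on A chromosomes (4138 members), 75.5% on B chromosomes (4924 members) and 66.7% on scaffolds (144 members). By chromosome this share ran from 72.2% to 80.6%, and that of the other models from 36.0% to 44.5%. Chromosomes held between 523 and 770 members each. Along the chromosomes the share was smaller near the ends, with 67.5% of called members higher in the 10% of the length at either end (2269 members) and 84.3% in the middle stretch, from 1/3 to 2/3 of the length (2607 members). The other models had 38.5% and 45.1% in the same places. The members' share without W1 replicate 1 was 74.0% on A, 74.4% on B, 68.4% to 81.2% by chromosome, 66.2% near the ends and 83.9% in the middle stretch.

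Many members lay near a model without LC, and those close to it on its own strand mostly shared its direction. Of the 9062 members on chromosomes, 331 overlapped the span of their nearest other model, 303 of them on the opposite strand, 1870 lay within 2 kb, 1870 between 2 and 10 kb, and 4991 (55.1%) farther away. Counting took whole spans, without strand, and dropped reads that touched more than 1 model, so values of overlapping and antisense members are uncertain. Within 2 kb, 1187 members lay on the strand of the neighbour and 683 on the other strand. Between W3.5 and W1, the same-strand member and its neighbour were both called in 204 pairs and had the same direction in 178 (87.3%). On opposite strands it was 61 of 101 pairs (60.4%), and beyond 10 kb 194 of 327 same-strand pairs (59.3%) and 143 of 302 opposite-strand pairs (47.4%). Across pairs within 2 kb, the log2 fold changes of member and neighbour correlated with r = 0.52 on the same strand (1036 pairs) and r = 0.20 on opposite strands (497 pairs). The shares without W1 replicate 1 were, within 2 kb, 85.5% of 166 same-strand pairs and 59.7% of 77 opposite-strand pairs, and beyond 10 kb 60.0% and 50.6%. Both values of a pair come from the same libraries, and the pairs are not independent. In W3.0 against W2, 48 of 49 same-strand pairs within 2 kb had the same direction, and 10 of 13 opposite-strand pairs. Distant pairs shared direction often in that comparison too. Beyond 10 kb it was 34 of 40 same-strand pairs (85%) and 28 of 40 opposite-strand pairs (70%).

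Members within 2 kb of each other on the same strand shared their direction in nearly every called pair. There were 1064 such pairs, and of the 242 in which both were called between W3.5 and W1, 237 (97.9%) had the same direction (174 of 178 without W1 replicate 1), so neighbouring LC models do not count as independent members. For members within 2 kb on opposite strands it was 20 of 25 called pairs (80%). The lean towards W3.5 was present far from models without LC too, though other LC models can lie near those members. Beyond 10 kb, 79.0% of 1011 called same-strand members and 80.2% of 923 called opposite-strand members were higher at W3.5, against 66.5% of 379 and 60.3% of 247 within 2 kb. In the fit without W1 replicate 1 these shares were 77.8% and 78.4% beyond 10 kb, against 65.4% and 61.4% within 2 kb. Among members that overlapped a model on the opposite strand, 41.9% of 93 called were higher, and 40.8% of 76 without that library.

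**Figure D4:**
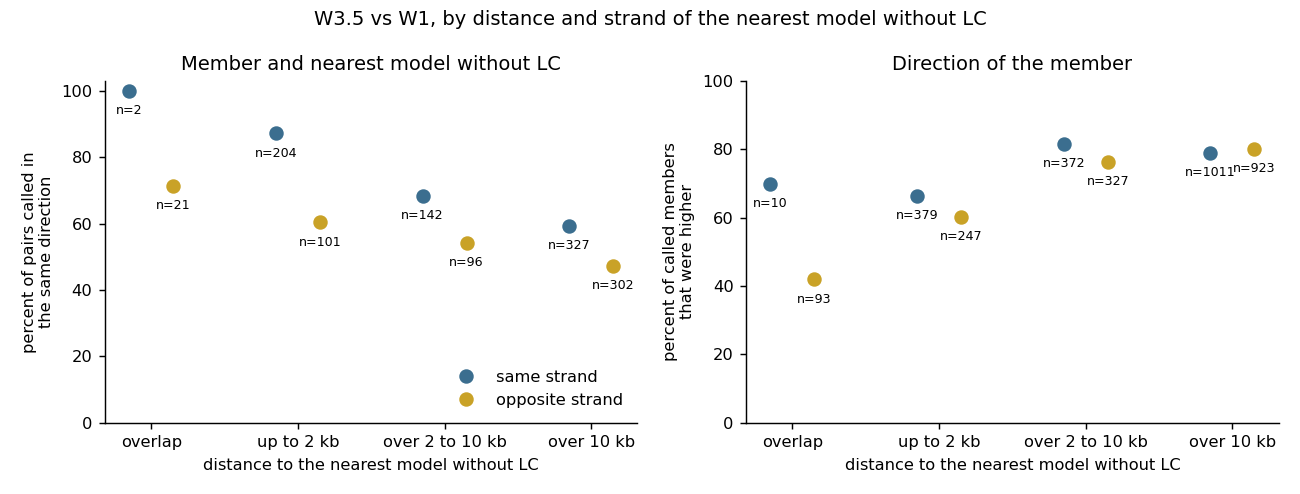
W3.5 against W1 by distance to the nearest model without LC (x axis) and by its strand. Left, percent of pairs, both called, in which member and neighbour changed in the same direction; right, percent of called members that were higher at W3.5, with n the number of pairs or members. Same-direction pairs are most frequent on the same strand within 2 kb (87.3% of 204), leaving aside 2 overlapping pairs, and called members beyond 10 kb are higher in 79.0% and 80.2% of cases.

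Particular members carried the extremes. The files give no description for LC models, so they are named by identifier and by position on IWGSC RefSeq v1.0, and a function is given only where the study supplies one. TraesCS3A02G173600LC (3A, 124176584 to 124176781, plus strand) had 8.34, 7.82, 18.1 and 10.8 TPM at W2, against no count in any W1 library. It then had 31.7 ± 2.702 TPM at W3.0, 25.9 ± 6.07 TPM at W3.25 and 27.0 ± 2.34 TPM at W3.5. Its W2 level was at least 29.8-fold that of W1, taking 3 counts over the 4 W1 libraries as the floor (adjusted p = 2.78e-08, edgeR). It lies 97 bp from TraesCS3A02G143100 on the same strand.

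Other rises at W2 started from few counts. TraesCSU02G606800LC, a scaffold model, had 21, 37, 30 and 17 counts at W2, against 1, 2, 0 and 0 at W1, a ratio of 36.8 after scaling for depth with a counting interval of 12.3 to 181. TraesCS2A02G626500LC had 14, 20, 18 and 19 counts at W2, against 0, 4, 2 and 1 at W1 (log2 fold change 3.32 ± 0.50, SE). TraesCS6B02G761100LC went on upward after W2, with a mean of 19.4 ± 4.65 TPM in W3.0, against 4.00 ± 1.01 TPM in W2, and changed by 3.11 ± 0.54 (W2 over W1) and 2.20 ± 0.27 (W3.0 over W2) on the log2 scale. TraesCS2B02G342500LC likewise rose at both steps, by 2.94 ± 0.46 and 2.24 ± 0.24.

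Falls at W2 included a member with no count at that stage alone. TraesCS1A02G041200LC (1A, 16477452 to 16479309) had no count in the 4 W2 libraries, against 176, 56, 39 and 35 counts at W1, and 38, 48, 125 and 28 counts at W3.0. It was at least 97.1-fold lower in W2 than in W1 and at least 74.3-fold higher in W3.0 than in W2 (adjusted p = 2.37e-05 and 8.43e-05, edgeR), and the later stages overlapped W1. TraesCS3A02G369400LC showed the same dip with counts left over, with 2, 2, 2 and 4 counts at W2, against 10, 17, 26 and 15 at W1 and 16, 15, 14 and 13 at W3.0. TraesCS4B02G589900LC had 3.39, 0.898, 1.118 and 0.945 TPM at W2, against 17.4, 13.02, 18.4 and 14.7 TPM at W1 (log2 fold change -3.44 ± 0.28). It fell further at W3.0, to 0.106 ± 0.132 TPM. TraesCS5A02G259000LC, which overlaps TraesCS5A02G147000 on the opposite strand, fell by 3.65 ± 0.50 on the log2 scale at W2, and TraesCS3B02G896600LC fell by 2.67 ± 0.36.

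Between W3.0 and W2 the largest rises, beside that of TraesCS1A02G041200LC, were in TraesCS7A02G185200LC, TraesCS1B02G564100LC, TraesCS2B02G025600LC and TraesCS2B02G826500LC, with log2 fold changes between 2.94 and 3.37. TraesCS1B02G564100LC had 46, 58, 48 and 34 counts at W3.0, against 5, 3, 5 and 5 at W2 and none at W1. The largest falls took members that were highest at W1 close to 0. TraesCS4A02G111000LC had 1, 5, 4 and 3 counts at W3.0, against 148, 76, 105 and 254 at W2 (log2 fold change -5.54 ± 0.55), and its W1 libraries spread from 155 to 649 counts. TraesCS3B02G893200LC, TraesCS5B02G358300LC, TraesCS5A02G304200LC and TraesCS5A02G690100LC kept 1 or 2 counts in total at W3.0, against 88, 117, 112 and 104 counts in total at W2.

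A stretch of chromosome 3A held the 3 members with the largest rises between W3.25 and W3.0. TraesCS3A02G690500LC (3A, 729226574 to 729227228, minus strand) had 7.92, 8.22, 9.14 and 8.71 TPM at W3.25, against 1.49, 0.738, 0.290 and 0.161 TPM at W3.0, and 17.0, 20.3, 22.1 and 19.04 TPM at W3.5. Its log2 fold changes were 3.63 ± 0.35 in W3.25 against W3.0 and 1.15 ± 0.22 in W3.5 against W3.25. TraesCS3A02G690600LC, the next model on the same strand, changed by 2.37 ± 0.28 and 1.097 ± 0.20. TraesCS3A02G691300LC, on the other strand, changed by 2.24 ± 0.33 in W3.25 against W3.0. It had 62, 71, 93 and 59 counts at W3.5, against no count at W1, and was at least 88.2-fold higher there. The stretch was drawn around these 3 rising members after their values were seen, so it is not an independent choice of region. It spans 407 kb and holds 8 models with at least 200 counts, 4 of them LC, and all 8 were called higher in W3.5 than in W1. The 3 members picked for their rise are among the 8, and 22.3% of all tested models were called higher. The 4 LC models of the stretch changed by 5.64, 5.48, 5.57 and 9.08 on the log2 scale, the last a fit against no counts, and the other 4 models by between 0.96 and 5.67. TraesCS3A02G690400LC, the LC identifier just before the stretch, was called lower (-0.67).

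The other named late changes were smaller. TraesCS2B02G273500LC rose at W2 and then fell at both late steps, with 104.8 ± 11.7 TPM in W3.0, then 49.1 ± 5.80 TPM in W3.25 and last 27.8 ± 9.33 TPM in W3.5. TraesCS1B02G463900LC peaked at W3.0 with 38.1, 38.4, 38.4 and 37.3 TPM, and had 10.4, 9.40, 10.1 and 12.7 TPM at W3.5, against 28.6, 22.4, 20.9 and 26.2 TPM at W3.25 (log2 fold change -1.26 ± 0.13). TraesCS3A02G423800LC, a 240 bp model, was called higher in W2, lower in W3.0 and lower in W3.5 than at the stage before, with 722 ± 175, 1364 ± 41.5, 709 ± 328, 1136 ± 37.4 and 552 ± 56.7 TPM in stage order. TraesCS3A02G596800LC rose by 2.13 ± 0.42 in W3.25 against W3.0. TraesCS2A02G050900LC rose there by 1.95 ± 0.42, an adjusted p of 0.0098 (edgeR) that moved past the threshold without any 1 of 15 of the 20 libraries, and without W3.25 replicate 2 the change was 1.28. That call was also lost with the replicate number as a block (1.93), with only the libraries of the 2 stages (1.95) and with a 200-count filter (1.95). TraesCS1A02G548100LC, TraesCS1B02G502700LC, TraesCS2A02G184400LC and TraesCS7A02G744600LC fell in W3.25 against W3.0, by 0.91 to 2.12 on the log2 scale. In W3.5 against W3.25, TraesCS2A02G702600LC, TraesCS3A02G728700LC and TraesCS5A02G454000LC rose by 2.29, 0.99 and 0.98, and TraesCS3A02G733200LC fell by 1.95. Of the 10 members named for each late comparison, 6 in W3.25 against W3.0 and 7 in W3.5 against W3.25 lost their call when some single library was left out, with no change of direction.

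Members with no count in any library of a stage were rare. There were 11, of which 6 were at 0 at W1, 1 at W2, and the others at 1 or more of the W3 stages. The 6 members at 0 at W1 (0.0652% of members) compare with 8 other models (0.0221%), and the 3 members at 0 at W3.5 (0.0326%) with 29 other models (0.0799%). TraesCS3A02G120500LC had 47, 55, 68 and 22 counts at W3.5 and none at W1, at least 59.5-fold higher, and TraesCS7B02G032300LC 36, 69, 53 and 50 counts at W3.5 and none at W1, at least 64.4-fold higher. TraesCS2B02G025600LC was at least 33.1-fold higher. In the other direction, TraesCS3B02G896600LC (3B, 823391707 to 823396380) had no count at W3.5, against 129, 108, 63 and 75 at W1, and was at least 134.6-fold lower. TraesCS2B02G415100LC had none at W3.5, against 79, 80, 71 and 60 at W1, and TraesCS6B02G005700LC none, against 44, 25, 57 and 47. Both had 0 counts in all 12 libraries of the W3 stages. At this depth a count of 0 over a stage allows up to 3 counts, so these levels are bounds for counting error only. TraesCS5B02G563800LC was variable at W1, with 521, 258, 96 and 114 counts, against 0, 0, 0 and 3 at W3.5, and its call was lost without W1 replicate 1 (log2 fold change -7.58) or W1 replicate 2 (-8.20). TraesCS5A02G690100LC had 1 count in each W3.5 library, against 172, 138, 156 and 181 at W1 (log2 fold change -7.27 ± 0.38).

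**Figure D5:**
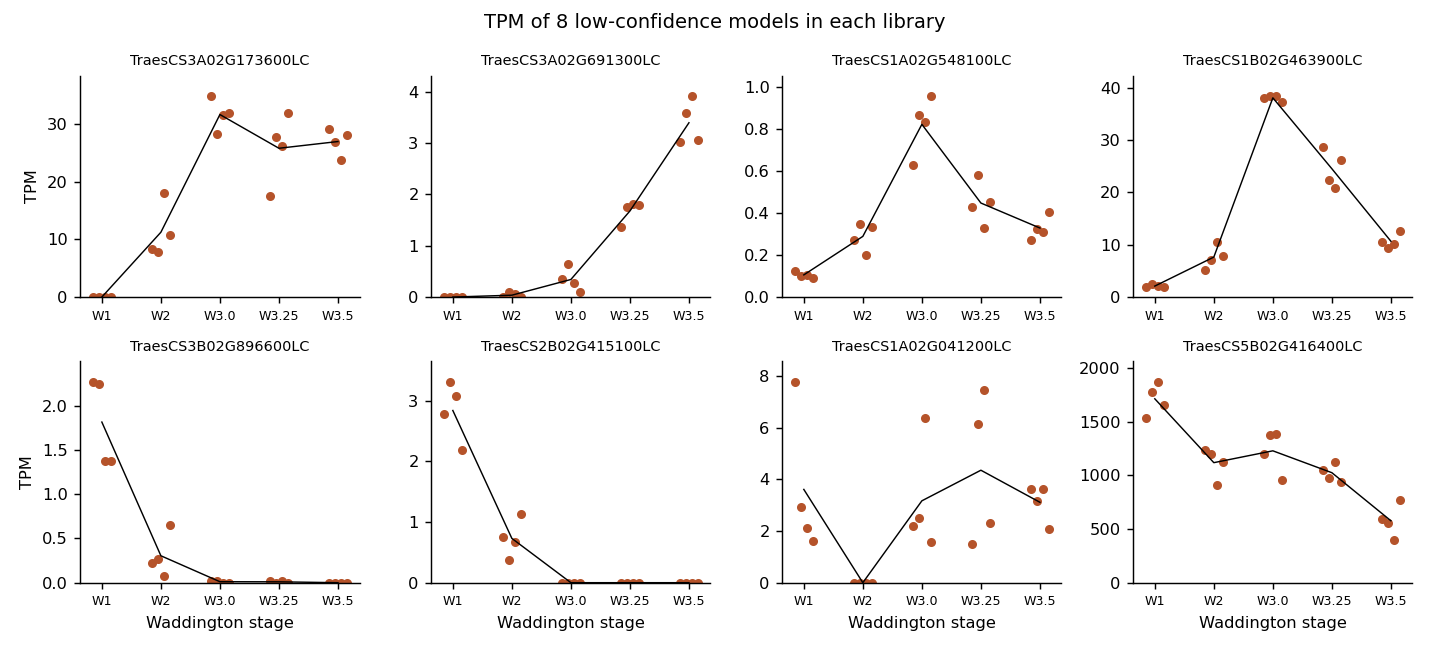
TPM (y axis, linear, each panel with its own range) of 8 LC members in each of the 20 libraries, by Waddington stage (x axis). Points are libraries and the line joins the means of 4. The first 2 panels rise from 0 at W1, TraesCS1A02G548100LC and TraesCS1B02G463900LC peak at W3.0, the second with 38.1 ± 0.516 TPM, TraesCS3B02G896600LC and TraesCS2B02G415100LC end at 0, TraesCS1A02G041200LC is at 0 only at W2, and TraesCS5B02G416400LC ends at 577 ± 155 TPM.

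The most abundant members were lower at W3.5 than at W1. Of the 10 with the most counts, 9 were called lower, with log2 fold changes between -1.83 and -0.58 (9 also without W1 replicate 1, between -1.83 and -0.50), and the 5 with the highest mean TPM were all called lower. TraesCS5B02G416400LC (5B, 445215329 to 445216534) had 591, 552, 393 and 770 TPM at W3.5, against 1538, 1780, 1873 and 1658 TPM at W1 (log2 fold change -1.83 ± 0.14). TraesCS5B02G416500LC, the next LC identifier on the same strand and 5028 bp from its nearest model without LC, had 632, 619, 493 and 825 TPM at W3.5, against 1246, 1434, 1667 and 1499 TPM at W1 (-1.44 ± 0.11). Both fell in W3.5 against W3.25, by 0.89 and 0.81 on the log2 scale. TraesCS7A02G179000LC, of 186 bp, had the highest level per length of all members, with 1891 ± 58.8 TPM at W3.5 and 2952 ± 330 TPM at W1 (-0.91 ± 0.07). TraesCS3A02G690400LC, which held the most counts of any member (325152), had 722 ± 22.3 TPM at W3.5 and 954 ± 45.5 TPM at W1. The other members of this group were called lower too. TraesCS1B02G793300LC, TraesCS2A02G583000LC, TraesCS7A02G451200LC, TraesCS6A02G465900LC, TraesCS7A02G644800LC, TraesCS5B02G565800LC, TraesCS7B02G080400LC and TraesCS4B02G230300LC had log2 fold changes between -0.86 and -0.58. TraesCS5B02G677900LC was the exception, with 386 ± 12.1 TPM at W3.5 and 340 ± 9.78 TPM at W1, and the test did not call it (log2 fold change -0.08 ± 0.05). Its TPM, scaled by the length-weighted counts of all models, and its fitted change, scaled by library factors, differ in sign. The same scalings apply to every model, so called directions and log2 fold changes hold relative to the library factors. Fits scaled by library totals alone were not run. Where near-identical copies exist, reads that matched several were not counted, so levels of repeated models are uncertain.

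Among LC models that the study names, TraesCS7A02G244300LC (7A, 140536199 to 140537919), a node of its network given as a TCP factor, a family of plant transcription factors that regulate cell growth and branching, is a member. It had 9.42, 6.31, 11.7 and 7.76 TPM at W3.5, against 31.0, 34.5, 34.7 and 38.9 TPM at W1, and fell at both early steps, by 0.54 ± 0.12 in W2 against W1 and by 2.14 ± 0.14 in W3.0 against W2 on the log2 scale. TraesCS2B02G775400LC, a WUSCHEL homologue named TtWUSb and thus of the family that maintains stem cells in the meristem, had 65 counts over the 20 libraries, too few for the cut or the test, with 33 of them at W3.0.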

How the data were processed

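Kronos apices at 5 Waddington stages gave 20 single-end libraries with reads of 100 bp. The deposited raw read counts were made by the authors, who mapped reads with STAR 2.7.5 to IWGSC RefSeq 1.0 and counted those of mapping quality 40 with featureCounts 2.0.0 over whole spans of annotation 1.1 models, without strand. Models of the D genome (79047, no counts) were left out, and no other per-sample column was present (0). Depth ran from 22229388 to 29655553 counts.

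All 48336 models that passed filterByExpr (minimum count 10, minimum total 15) entered 1 fit of the 20 libraries with stage as the only term. A call needed an adjusted p of at most 0.01 (Benjamini-Hochberg) in the same direction from edgeR 4.0.16 (quasi-likelihood, TMM) and DESeq2 1.42.0 under R 4.3.3. Tables and plots were made with Python 3.11.15, pandas 2.3.3, numpy 2.4.6, scipy 1.17.1 and matplotlib 3.10.9. TPM used the whole span as length. Errors of log2 fold changes are SE, and those of levels and shares SD of 4 libraries. At-least folds set 3 counts over a stage against its 0. Counting intervals (95%) cover counting error only. Principal components were computed on log2 CPM with a prior count of 2.

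For each comparison and direction the text names the 5 called members with the largest fold change, among those with at least 10 counts in each library of the higher stage and libraries that do not overlap, besides the 10 members with the most counts, the 5 with the highest TPM, the 3 silent at W1 and the 3 silent at W3.5 with the most counts, those nearest the cut and those named by the study. The members and lists were chosen with earlier results of these data known. Replicate numbers did not pair the libraries: correlations of same-numbered libraries ran from -0.053 to 0.067. The labels call replicates biological pools. Alternatives covered tools, normalization, filters, thresholds, cuts, the replicate block and leaving out each library. The scripts were tested on simulated data.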

Additional observations from a re-analysis of the deposited data

Results flagged for a closer look

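Each library was compared with the other 3 of its stage for the shares, the principal component scores and the TPM of named models. In 14 of 242 such groups (5.79%) 1 library stood apart by Dixon's test at 95%, and chance gives about 1 in 20. W1 replicate 1 had a score of -62.71 on the first component of the members (others -46.3 to -45.7) and 32.74 on the second (others -2.33 to 2.92). The members on B took 3.35% of counts in W3.25 replicate 2, against 3.53% to 3.56% in the others.

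Among members high in 1 library, TraesCS5B02G563800LC had 17.84 TPM in W2 replicate 4 (others 0.471 to 0.817), TraesCS4B02G589900LC had 3.387 TPM in W2 replicate 1 (others 0.898 to 1.118) and TraesCS3A02G423800LC had 636.5 TPM in W3.5 replicate 4 (others 518 to 526). TraesCS1A02G338600LC, just under the cut, had 2.279 TPM in W1 replicate 1 (others 0.633 to 0.739). Low in 1 library were TraesCS1B02G793300LC with 576.4 TPM in W3.0 replicate 4 (others 672 to 689), TraesCS2A02G583000LC with 1018.4 TPM (others 1068 to 1072) and TraesCS2A02G626500LC with 2.356 TPM (others 3.16 to 3.29), both in W2 replicate 1. TraesCS2B02G826500LC had 0.7871 TPM in W3.25 replicate 3 (others 1.32 to 1.37) and TraesCS3A02G691300LC 1.367 TPM in W3.25 replicate 1 (others 1.75 to 1.81). In W1 replicate 2, TraesCS3A02G728700LC had 0.3595 TPM (others 0.522 to 0.542) and TraesCS3A02G733200LC 2.566 TPM (others 3.95 to 4.09).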

How the results depend on the processing

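The count of called members depended on the threshold and, in the late comparisons, on single libraries. At an adjusted p of 0.05 it was 1805 (W2 against W1), 1605 (W3.0 against W2), 68 (W3.25 against W3.0) and 73 (W3.5 against W3.25), and with at least a 2-fold change it was 282, 404, 14, 6 and, for W3.5 against W1, 1088. DESeq2 alone called 51 and 42 members in the late comparisons. Fits on only the libraries compared called 654 in W2 against W1 and 54 in W3.5 against W3.25, where no low-count filter gave 39. The share of called members that were higher in W3.0 against W2 was 64.4% at an adjusted p of 0.05, 64.5% at a cut of 500 counts and 49.0% past 2-fold, a reversal, and past 2-fold it was 78.6% in W3.25 against W3.0 and 68.0% in W3.5 against W1. The difference in read share was 0.504 points (W2 minus W1) and 0.992 points (W3.5 minus W1) without the 10 most abundant members, and 0.688 and 1.217 points as a share of TPM. With scaled values the first component held 34.9%. The causes were not tested.

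Leaving out 1 library at a time gave 819 to 1065, 730 to 1119, 12 to 45, 7 to 42 and 2902 to 3396 called members in the 5 comparisons, in the order of the text, and 4301 to 4519 that changed over the 5 stages. The percentage higher was 68.0 to 70.7, 57.6 to 62.9, 52.9 to 68.8, 25 to 46.7 and 74.0 to 75.6. The differences in read share were 0.399 to 0.458, 0.265 to 0.350, -0.0326 to 0.0988, -0.0236 to 0.0960 and 0.772 to 0.838 points, so those between the W3 stages changed sign, the first without W3.0 replicate 1 (-0.0326), W3.25 replicate 1 (-0.0170) or W3.25 replicate 4 (-0.0179), the second without W3.25 replicate 2 (-0.0236). With the replicate number as a block, 941, 868, 30, 27 and 3167 members were called. Named members gave 81 lost calls and no change of direction. Low counts limit the precision of members near the cut.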
